A study of Mus musculus with 22 samples.

Results

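The proteasome is the protease complex that degrades ubiquitin-tagged proteins, and the arrays measured 41 genes whose symbol begins with Psma, Psmb, Psmc, Psmd or Psme and a digit, out of 18524 genes in all. The inducible subunits Psmb8, Psmb9 and Psmb10 were left out of this set by its definition. Of the 41 genes, 39 encode subunits, activators or assembly chaperones of the proteasome. The other two share only the symbol: Psmc3ip encodes a meiotic recombination protein and Psme3ip1 a protein that binds an activator. Psma3 was not among the genes measured. A gene with several probes was read by the probe of highest mean over all mice, and 24 of the 41 genes had more than 1 probe.

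The RNA came from the ischemic gastrocnemius of 22 mice, all male C57BL/6N, labelled non-diabetic and 8 to 12 weeks old, whose femoral artery had been removed to induce hindlimb ischemia. The mice were randomized, and on day 5 each received an intraperitoneal injection of 12 mg/kg of a locked nucleic acid (LNA) oligonucleotide. It was directed against miR-210 in the 11 ANTI-210 mice and had a scrambled sequence in the 11 SCR mice. Muscles were taken on day 7, and 200 ng of total RNA of 1 mouse was used to prepare the labelled sample of each array, so the mouse was the replicate. The design text calls the reagents GAPmers and the protocol text calls them microRNA inhibitors. Both groups were ischemic, and non-ischemic muscle was not analysed here. The comparison asked whether blocking miR-210 changed these transcripts in regenerating muscle.

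The core of the proteasome, the 20S particle, is a barrel of alpha rings that gate it and beta rings that hold the catalytic sites. The 19S particle caps the barrel. Its base holds the ATPases that unfold substrates, and its lid removes ubiquitin. Other activators, PA28 and PA200, can take the place of the cap. In muscle the proteasome is known as the main route by which contractile proteins are degraded during atrophy. When it is inhibited, the transcription factor Nrf1 (Nfe2l1) raises the transcription of its subunits together through antioxidant response elements.

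The microRNA that the oligonucleotide was directed against is shown because it defines the groups. Its mature sequence in RefSeq lies on the minus strand of GRCm38.p6 at chr7:141221407-141221428, and the capitals mark its seed, bases 2 to 8.
mmu-miR-210-3p: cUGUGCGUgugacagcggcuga

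Of the 41 genes, 34 had a promoter sequence in the RefSeq table of GRCm38.p6. Upstream sequences of 250 bases are given for 4 genes whose levels later proved to follow the state of the muscle in opposite directions: Psme4 and Psmd12 in one direction, Psma5 and Psmd10 in the other. They are examples and do not stand for the other genes of their direction. Capitals mark the antioxidant response element core TGACNNNGC or the CCAAT box, each searched on both strands. The Psme4 sequence is chr11:30771525-30771774, plus strand, and the Psmd12 sequence chr11:107479278-107479527, plus strand. The Psma5 sequence is chr3:108256676-108256925, plus strand, and the Psmd10 sequence chrX:140956712-140956961, minus strand.
Psme4: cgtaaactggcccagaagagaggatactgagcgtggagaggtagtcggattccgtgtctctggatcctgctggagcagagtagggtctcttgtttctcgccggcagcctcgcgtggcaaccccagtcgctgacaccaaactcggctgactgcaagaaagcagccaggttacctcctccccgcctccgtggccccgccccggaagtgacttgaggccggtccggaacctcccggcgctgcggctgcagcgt
Psmd12: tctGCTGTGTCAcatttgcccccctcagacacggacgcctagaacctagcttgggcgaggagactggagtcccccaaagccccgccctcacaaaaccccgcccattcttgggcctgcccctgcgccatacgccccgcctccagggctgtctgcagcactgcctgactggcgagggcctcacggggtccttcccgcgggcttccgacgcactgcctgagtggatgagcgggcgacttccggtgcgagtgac
Psma5: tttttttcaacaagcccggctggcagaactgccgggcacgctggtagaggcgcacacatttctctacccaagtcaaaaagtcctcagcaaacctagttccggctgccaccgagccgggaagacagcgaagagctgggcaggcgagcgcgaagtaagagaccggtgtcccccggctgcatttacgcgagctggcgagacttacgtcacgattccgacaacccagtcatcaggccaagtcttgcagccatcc
Psmd10: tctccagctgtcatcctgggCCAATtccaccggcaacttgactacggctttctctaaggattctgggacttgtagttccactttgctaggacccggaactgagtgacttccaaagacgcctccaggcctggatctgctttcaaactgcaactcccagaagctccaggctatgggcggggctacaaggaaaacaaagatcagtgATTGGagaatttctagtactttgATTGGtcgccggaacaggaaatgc

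In the window of 300 bases from 250 before to 50 after the start, the antioxidant response element core was present in 6 of the 34 genes (17.6%) and in 14.0% of 27025 genes with a promoter. The CCAAT box was present in 14 of the 34 (41.2%) and in 41.1% of all. Psmd12 held 1 antioxidant response element core and Psmd10 held 3 CCAAT boxes in the sequences shown. Psme4 held its single antioxidant response element core downstream of the start, outside the sequence shown, and the Psma5 window held neither motif. These are matches of letters and not sites of binding.

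The deposited values ran from 4.35 to 15.4 on the log2 scale over all arrays together, and correlations between arrays lay between 0.947 and 0.997. Of the 38563 probes, 62.6% had a mean under 6, called near the floor, where values respond less to a change in RNA. Probes just under 6 could still vary between mice, as that of Psmc6 did (mean 5.87, SD 0.37). Among the 41 genes 6 were near the floor: Psma1, Psma6, Psma8, Psmb11, Psmc6 and Psmd3. Psma8 and Psmb11, subunits of the testis and of thymic epithelium, had means of 5.19 and 4.88. Mature fibre markers were bright in every muscle, with a mean level over 33 markers of 12.8 to 13.7 in SCR and 12.9 to 13.7 in ANTI-210 mice, and 1 of them, Dmd, was near the floor. Replicate numbers 1 to 3 and 4 to 11 were also examined apart, because earlier work on these arrays had found that they separate; the labels name no batch.

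Blocking miR-210 was followed by little difference in proteasome transcripts. With limma, 1 of the 41 genes was higher and 2 were lower with ANTI-210 at an unadjusted p under 0.05, and none passed after Benjamini-Hochberg adjustment over all probes. Over all genes 1.45% were higher and 2.01% were lower at that threshold, against 7.32% of these 41 in either direction. The median log2 difference of the 41 genes was -0.01, and that of all genes was -0.0036. The differences ranged from -0.13 to 0.10, with standard errors from 0.02 to 0.18. The 3 genes past the threshold were Psma2, Psmd8 and Psmd3.

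Psma2, which encodes a subunit of the alpha ring, had a lowest, median and highest log2 intensity of 13.19, 13.32 and 13.50 in SCR mice. In ANTI-210 mice the corresponding values were 13.31, 13.46 and 13.67. The groups overlapped, with 2 ANTI-210 mice above the highest SCR mouse and 5 SCR mice below the lowest ANTI-210 mouse. The means were 13.35 ± 0.11 (SD, n = 11) and 13.45 ± 0.10 (SD, n = 11), and the log2 difference was 0.10 (standard error 0.04, unadjusted p = 0.0355 from limma). When each mouse was left out in turn, the call was lost in 9 of 22 fits, each without 1 of SCR replicates 1 to 5 and ANTI-210 replicates 3, 8, 9 and 11, with differences between 0.08 and 0.12 over all 22 fits.

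Psmd8, a subunit of the lid, had a lowest, median and highest log2 intensity of 12.01, 12.14 and 12.51 in SCR mice. In ANTI-210 mice these were 11.90, 12.13 and 12.24. The medians nearly coincided, and the groups parted at their ends, with 4 SCR mice above the highest ANTI-210 mouse and 3 ANTI-210 mice below the lowest SCR mouse. The log2 difference was -0.13 (standard error 0.06, unadjusted p = 0.0485 from limma). It missed the threshold in 12 of the 22 fits that left out a mouse, each without 1 of SCR replicates 4 and 8 to 11 and ANTI-210 replicates 1, 3, 4, 6, 7, 10 and 11, with differences between -0.15 and -0.096 over all 22 fits. The second probe of Psmd8 was near the floor and differed by 0.0073.

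Psmd3, another subunit of the lid, lay near the floor, and its log2 intensity ran from 4.48 over a median of 4.60 to 4.69 in SCR mice. In ANTI-210 mice it ran from 4.48 over 4.53 to 4.61. The log2 difference of -0.07 (standard error 0.02, unadjusted p = 0.0051 from limma) passed the threshold whichever mouse was left out, and 4 SCR mice lay above the highest ANTI-210 mouse. Its second probe, also near the floor, differed by -0.02.

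The within-set differences of Psma2, Psmd8 and Psmd3 were 0.13, -0.03 and -0.06 in replicate numbers 1 to 3, where a two-sided exact permutation test of 3 mice against 3 cannot go below 0.1 (exact p of 0.1, 0.8 and 0.1). In numbers 4 to 11 they were 0.09, -0.16 and -0.07 (exact permutation p of 0.122, 0.0508 and 0.0238). Thus the Psma2 and Psmd3 differences were of like size in both sets, and that of Psmd8 was larger in numbers 4 to 11. Whether the sets differed was not tested. In numbers 1 to 3 the mature fibre score described below was 0.13 to 0.21 in SCR and -0.29 to 0.01 in ANTI-210 mice. Treatment and the state of the muscle therefore cannot be told apart in that set. With this score as a covariate the differences of the 3 genes were 0.10, -0.12 and -0.07 and passed the threshold (unadjusted p of 0.0102, 0.0471 and 0.0050 from limma). Psma2 missed it after cyclic loess (unadjusted p = 0.0940), with a trended robust eBayes (0.105) and with only the brighter probes (0.0835). Psmd8 missed it with a trended robust eBayes (0.0906), with only the brighter probes (0.0771) and with the mean of all its probes, where the difference was -0.059 (0.172). The difference of Psmd3 with the mean of its probes was -0.043 (unadjusted p = 0.0127 from limma).

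**Figure D1:**
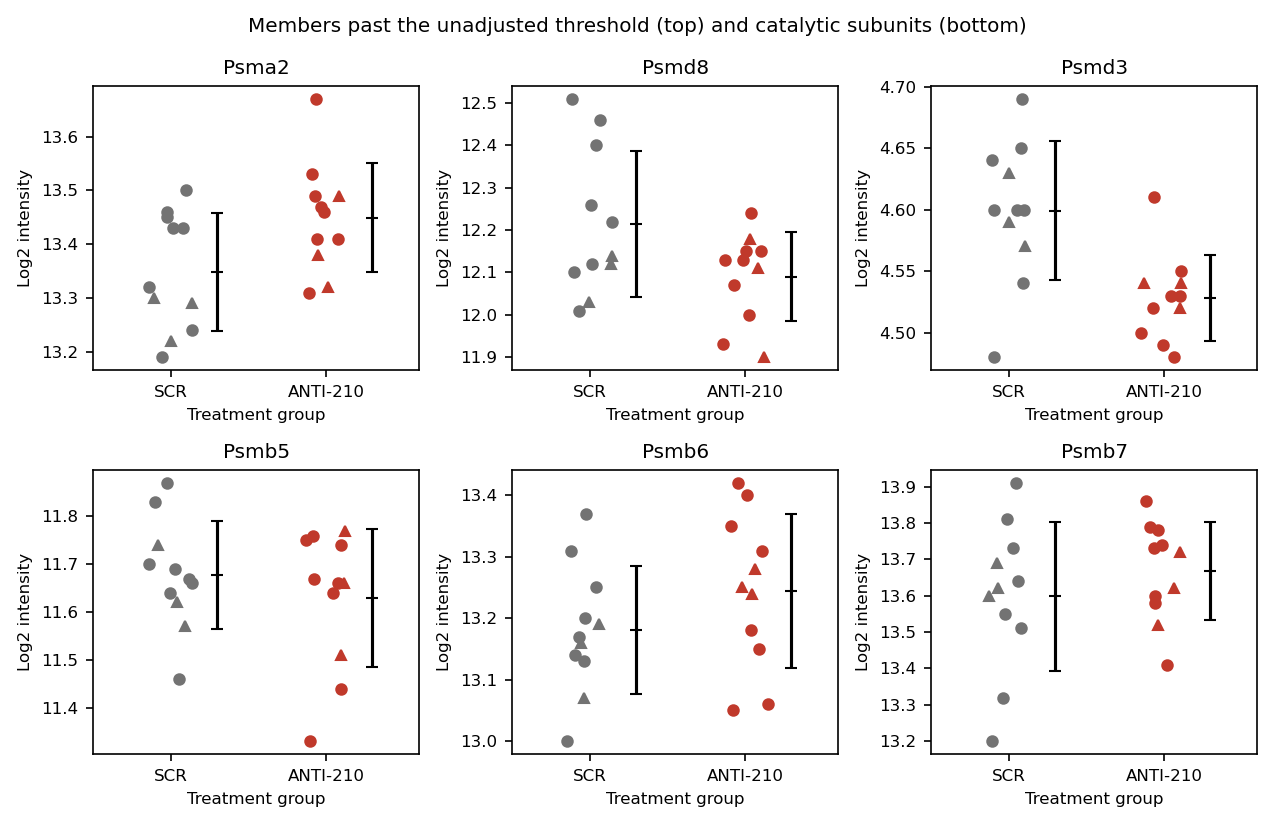
Log2 intensity (vertical axes, which differ and do not start at 0) of Psma2, Psmd8 and Psmd3 (top) and of the catalytic subunits Psmb5, Psmb6 and Psmb7 (bottom) in SCR mice (grey) and ANTI-210 mice (red); a triangle is a mouse with replicate number 1, 2 or 3, a circle any other mouse, and each bar gives the group's mean ± SD (n = 11). In each panel the groups overlap.

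The catalytic subunits did not pass the test. Psmb5, which carries the chymotrypsin-like site, had a median log2 intensity of 11.67 (11.46 to 11.87) in SCR and 11.66 (11.33 to 11.77) in ANTI-210 mice, a difference between means of -0.05 (95% interval -0.16 to 0.07). Psmb6, with the caspase-like site, had medians of 13.17 (13.00 to 13.37) and 13.25 (13.05 to 13.42), a difference of 0.06 (95% interval -0.04 to 0.16). Psmb7, with the trypsin-like site, had medians of 13.62 (13.20 to 13.91) and 13.72 (13.41 to 13.86), a difference of 0.07 (95% interval -0.08 to 0.22). The groups overlapped over most of their range for each of these genes.

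The named genes of the activators, chaperones and other parts, apart from Psma2, Psmd8 and Psmd3, did not pass it either. Among the activators the differences were 0.10 for Psme1 and 0.10 for Psme2, which form PA28 αβ, and -0.05 each for Psme3, which forms PA28γ, and Psme4, which encodes PA200. The 95% interval for Psme4 reached from -0.37 to 0.28, the widest of the activators. The chaperones that assemble the base differed by 0.03 for Psmd5, -0.13 for Psmd9 and 0.06 for Psmd10. The deubiquitinase of the lid, Psmd14, differed by -0.02, the ubiquitin receptor Psmd4 by -0.07, the ATPase Psmc4 by 0.02 and the alpha subunit Psma7 by -0.01. Psma5, at 0.10, and Psma8, at -0.08, were among the 3 largest differences in their directions and were not past the threshold. Psmc3ip differed by -0.0091 and Psme3ip1 by -0.05.

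**Figure D2:**
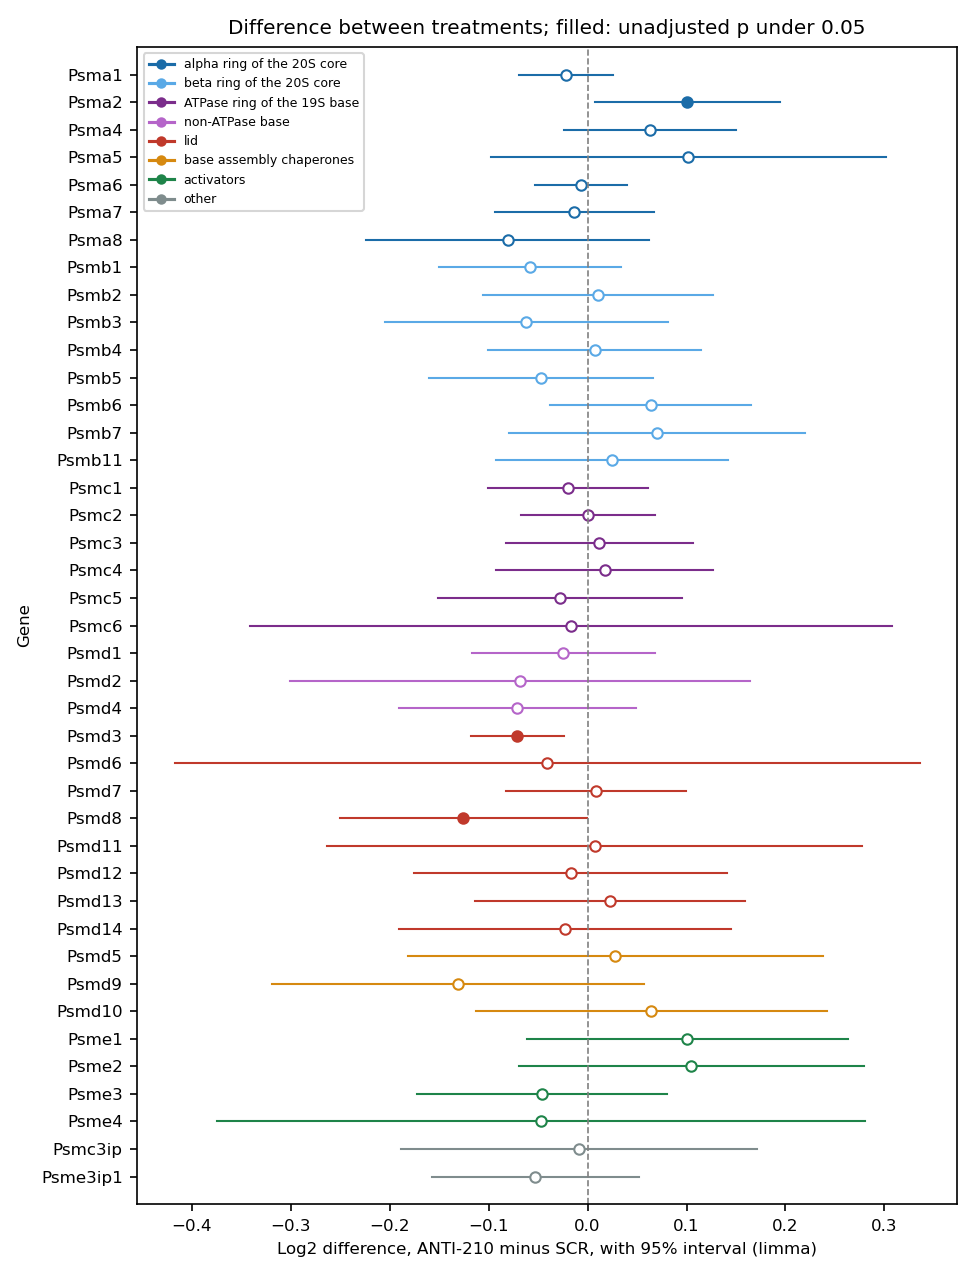
Log2 difference between ANTI-210 and SCR mice (horizontal axis) of each of the 41 genes, with its 95% interval from limma, coloured by role; filled points had an unadjusted p under 0.05. The points lie between -0.13 and 0.10, and the filled ones are Psma2, Psmd3 and Psmd8.

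Proteasome genes also varied between mice of the same group, and not all in 1 direction. The muscles differed in how much mature fibre RNA they held. A mature fibre score was taken as the mean, over the 33 markers, of the log2 value minus the marker's mean over the 22 mice; it contains no proteasome gene. It ran from -0.66 in SCR replicate 6 to 0.24 in ANTI-210 replicate 6, and was also low in ANTI-210 replicate 11 (-0.55), SCR replicate 7 (-0.42) and ANTI-210 replicate 3 (-0.29). Its mean was 0.0088 ± 0.29 (SD, n = 11) in SCR and -0.0088 ± 0.23 (SD, n = 11) in ANTI-210 mice. Not all of the 33 markers followed the score that they make up. At an adjusted p under 0.05 from limma, 24 had a positive slope on it and 1 a negative one. In whole muscle, fewer fibres and less of their RNA per fibre cannot be told apart.

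Other cells moved with this score. Over all genes, 20.2% had a positive and 24.0% a negative slope on it at an adjusted p under 0.05 from limma. Of 20 macrophage and leukocyte markers, 19 had a negative slope and 1 a positive one at that threshold, and of 13 regenerating fibre markers 11 had a negative slope. The mean level of the macrophage list ran from 8.08 to 10.6 in SCR and from 8.48 to 10.4 in ANTI-210 mice, with Itgam, Ptprc and Msr1 near the floor. That of the regenerating list ran from 8.35 to 10.7 and from 8.65 to 10.6, with Myf5, Pax7 and Chrnd near the floor. Of 8 fibroblast markers 6 had a negative slope, while of 10 endothelial markers 2 had a positive and 1 a negative slope, and 5 of these 10 were higher with ANTI-210 at an unadjusted p under 0.05, beside 1.45% of all genes. A low fibre score thus marked muscles with more inflammatory and regenerating RNA, and the part of each cell type in the slopes below was not tested.

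On the mature fibre score, with treatment in the fit, 9 of the 41 genes had a positive slope and 10 a negative one at an adjusted p under 0.05 from limma over all probes. Over all genes 20.2% were positive and 24.0% were negative, so the share of the proteasome genes, 46.3% in either direction, was near that background. Genes near the floor are mostly uncalled. Above the floor, 22.9% of 35 proteasome genes were positive and 25.7% negative, against 36.0% and 37.8% of 8828 genes. The median size of the slope was 0.27 in these 35 and 0.73 in the 8828, and the median SD over all mice was 0.14 and 0.28. The called subunits thus went in both directions along the score.

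The steepest positive slope was in Psme4, which encodes PA200, an activator known for opening the core without ATP. Its log2 intensity had a lowest, median and highest value of 11.88, 12.71 and 13.11 in SCR and of 11.93, 12.47 and 13.07 in ANTI-210 mice. It was lowest in SCR replicates 6 and 7, both at 11.88, and ANTI-210 replicate 11, at 11.93, which were the 3 mice with the lowest fibre score. The slope was 1.30 log2 units per unit of score (standard error 0.13, adjusted p = 4.95e-08 from limma). It was 0.92 within replicate numbers 1 to 3 and 1.30 within numbers 4 to 11. The second probe of Psme4, near the floor, had a slope of 1.78.

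The lid held 5 of the 9 positive slopes. Psmd6 ran from 7.76 in ANTI-210 replicate 11 to 9.44 in ANTI-210 replicate 6, the mice with the lowest and the highest score of that group. Its slope was 1.08 (standard error 0.27, adjusted p = 0.0026 from limma), although it was -0.26 within numbers 1 to 3 and 1.21 within numbers 4 to 11. Psmd11 ran from 9.33 to 10.44 in the same mice, with a slope of 0.93 (standard error 0.16, limma adjusted p = 5.17e-05). Within the sets its slope was 0.19 and 0.98. Psmd12, Psmd14 and Psmd7 followed with 0.57, 0.41 and 0.25, while Psmd13 went the other way with -0.41. Of the 8 lid genes, Psmd8 (0.16) and Psmd3 (-0.05) were not past the threshold.

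The remaining positive slopes were those of the scaffold Psmd2 of the base (0.76), the ATPase Psmc6 (0.86, near the floor) and the catalytic Psmb7 (0.54, standard error 0.08, adjusted p = 8.08e-06 from limma). The 4 probes of Psmb7 had slopes of 0.54, 0.60, 0.74 and 0.95, in order from the brightest to the dimmest. Psmb7 was lowest in SCR replicates 6 and 7, at 13.20 and 13.32. The other catalytic subunits were not called, with slopes of 0.11 for Psmb5 (95% interval -0.11 to 0.34) and 0.12 for Psmb6 (95% interval -0.07 to 0.32). Whether the slope of Psmb7 differed from theirs was not tested.

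The steepest negative slope was in Psma5, of the alpha ring. Its log2 intensity had a lowest, median and highest value of 12.55, 12.78 and 13.23 in SCR and of 12.64, 12.99 and 13.37 in ANTI-210 mice. It was highest in ANTI-210 replicate 11 (13.37), SCR replicate 7 (13.23) and ANTI-210 replicate 3 (13.19), which had low fibre scores. The slope was -0.76 (standard error 0.10, limma adjusted p = 7.13e-07). It was -0.85 within numbers 1 to 3 and -0.71 within numbers 4 to 11. Its second probe, near the floor, had -0.07. The slope of Psma5 was -1.23 after cyclic loess and -0.42 with the mean of its probes, past the threshold in both. Of the other alpha genes Psma2 (-0.28) and Psma8 (-0.32, near the floor) had called negative slopes, and Psma7 (-0.05) did not pass.

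Psmd10, also named gankyrin, a chaperone of base assembly, had a slope of -0.67 (standard error 0.09, adjusted p = 1.21e-06 from limma). Its log2 intensity was 9.95 at the lowest, 10.15 at the median and 10.59 at the highest in SCR mice, and 9.99, 10.19 and 10.63 in ANTI-210 mice. The highest values of both groups, in SCR replicate 6 and ANTI-210 replicate 11, came from the mouse with the lowest score of its group. The slopes within numbers 1 to 3 and 4 to 11 were -0.37 and -0.67, and its dimmer probes gave -0.51 and -0.29. The other chaperones, Psmd5 (-0.24) and Psmd9 (0.10), were not past the threshold.

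PA28 activators went the opposite way to PA200. Psme1 had a slope of -0.55 (standard error 0.10, limma adjusted p = 1.10e-04). Its log2 intensity was highest in ANTI-210 replicates 3 and 11, at 11.75 and 11.59. Its slope was -1.34 within numbers 1 to 3 and -0.54 within numbers 4 to 11, and its second probe gave -0.22, not past the threshold (adjusted p = 0.201 from limma). Psme2 had -0.38 and Psme3 had -0.33, so that all 4 activators were called in the deposited values, 3 of them negative. The call of Psme2 was lost after quantile normalization again (adjusted p = 0.0541), after median centring (0.0637) and within numbers 4 to 11 (0.133). After cyclic loess the slope of Psme1 was -0.83. Psmb2 (-0.38), Psmc4 (-0.27) and Psmd13 completed the 10 negative slopes. Psmc3ip (-0.33) and Psme3ip1 (0.22) were not called.

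**Figure D3:**
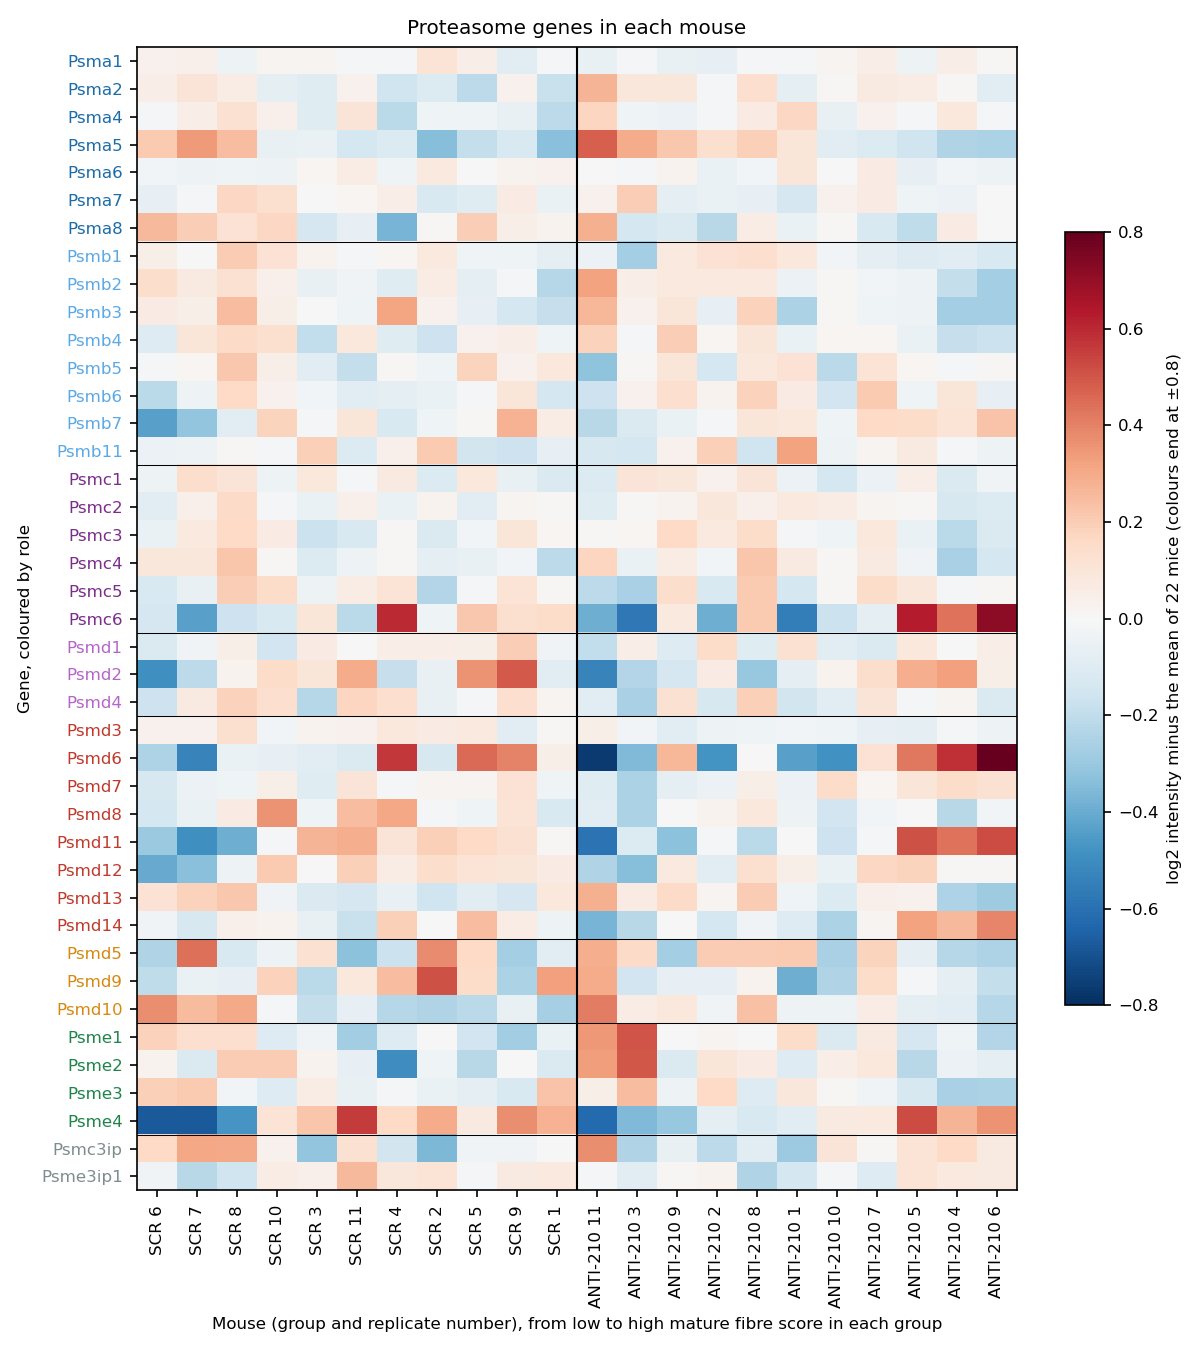
Log2 intensity of each of the 41 genes (rows, coloured by role) in each mouse (columns, SCR left and ANTI-210 right, each from low to high mature fibre score), minus the gene's mean over the 22 mice. Psme4, Psmd6 and Psmd11 mostly go from blue to red along the score in each group, Psma5 and Psmd10 from red to blue, and most core and ATPase genes stay pale.

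**Figure D4:**
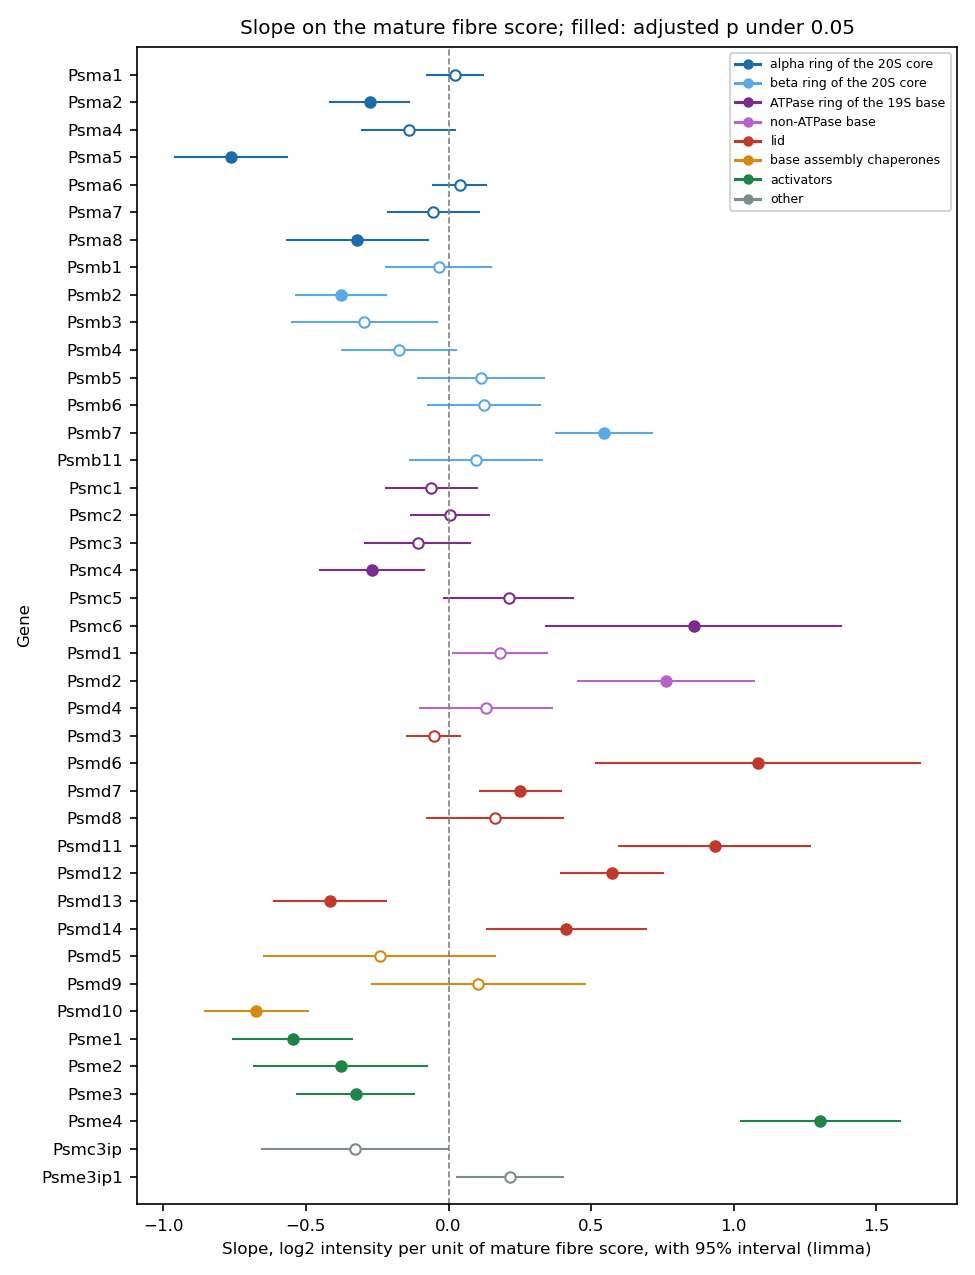
Slope of each gene's log2 intensity per unit of the mature fibre score (horizontal axis), with its 95% interval from limma, coloured by role; filled points had an adjusted p under 0.05. The 9 filled points right of 0 reach 1.30 for Psme4, and the 10 left of 0 reach -0.76 for Psma5.

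Among the 9 genes with a called positive slope, 8 were positive within replicate numbers 1 to 3 and 9 within numbers 4 to 11. Among the 10 with a called negative slope, 8 and 10 were negative. The genes were called with the mice of both sets in the fit, so these counts are no independent check of the slopes. Within numbers 1 to 3 the SCR scores ran only from 0.13 to 0.21, so the slopes there rest mainly on the ANTI-210 mice. Another scaling of the arrays moved the split. It was 9 positive and 9 negative after quantile normalization again, 7 and 16 after cyclic loess, and 11 and 8 after median centring. The shares of all genes called in these scalings are not given here, so a change in the counts cannot be read as particular to the proteasome genes. The same 7 genes were called positive in all 4 scalings (Psme4, Psmd6, Psmd11, Psmd12, Psmd2, Psmb7 and Psmc6) and the same 8 negative (Psma5, Psmd10, Psme1, Psmd13, Psmb2, Psme3, Psma2 and Psmc4). None of the 19 genes called in the deposited values turned its sign between scalings. Among the others, Psma4 (-0.42), Psmb1 (-0.29), Psmb3 (-0.63), Psmb4 (-0.52), Psmc2 (-0.26) and Psmc3 (-0.38) were called negative after cyclic loess. All of these are core or ATPase genes, and the slope of Psmc2 was 0.0068 in the deposited values. Psmb3 was also called negative after quantile normalization again (adjusted p = 0.0413 from limma). After median centring Psmd1 (0.20, adjusted p = 0.0431 from limma) and Psme3ip1 (0.24) were called positive. Psmd1 had -0.01 after cyclic loess. The uncalled slopes of Psmb5, Psmb6, Psmd4 and Psmd8 turned negative after cyclic loess.

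Probes of the same gene did not always go together. The brightest probe of Psmd7 had a slope of 0.25, and its other probes had 0.45 and -0.66 (adjusted p = 2.71e-05 from limma). For Psmd1, a scaffold of the base, the brightest probe was not called (0.18, adjusted p = 0.0858), while the dimmer probes had 0.25 and 1.02 (adjusted p of 0.0178 and 1.38e-08 from limma). A dimmer probe of the ATPase Psmc2 had 0.83 and the brightest one 0.0068. The second probes of Psmd11, Psmd12 and Psmd6 had slopes of 1.16, 1.11 and 1.18, in the direction of the brightest ones. That of Psmd14, above the floor, had 0.25 and was not called (adjusted p = 0.421 from limma).

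The other scores gave the picture in mirror image. On the macrophage and leukocyte score 8 of the 41 genes had a positive and 10 a negative slope, against 23.8% and 21.8% of all genes. On the regenerating fibre score 9 were positive and 10 negative, against 23.9% and 21.6% of all genes. The scores are taken from the same mice and arrays, so these counts are not independent of those for the fibre score. After cyclic loess the splits were 15 positive and 8 negative on each of these scores, and after median centring 6 and 10 on the macrophage score and 8 and 10 on the regenerating score. For these scalings too the shares of all genes are not given here.

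The slope itself differed between treatments in 3 of the 41 genes (7.32%) at an unadjusted p under 0.05 from limma, against 5.97% of all genes, and in none after adjustment. Psmd14, the deubiquitinase of the lid, had a slope of 0.15 in SCR and 0.83 in ANTI-210 mice. Psmb2, of the beta ring, had -0.25 and -0.57, and the chaperone Psmd9 had 0.39 and -0.35.

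Genes that work with the proteasome were measured in 35 cases from lists of assembly factors, associated proteins, ubiquitin receptors, the p97 complex and regulators of transcription, with the 3 inducible subunits among them. None had an unadjusted p under 0.05 for treatment from limma, where 1.45% of all genes were higher and 2.01% lower. The smallest was 0.0609, for Ngly1, the enzyme that activates Nrf1, near the floor, and the median log2 difference was -0.02. The inducible subunits of the immunoproteasome differed by 0.52 for Psmb8 (standard error 0.27, unadjusted p = 0.0659), 0.32 for Psmb9 (standard error 0.18, unadjusted p = 0.0889) and 0.11 for Psmb10 (standard error 0.10, unadjusted p = 0.299), from limma. The genes encoding Nrf1 and Nrf2, Nfe2l1 and Nfe2l2, differed by -0.10 and 0.06, and Pomp, the maturation protein of the core, by 0.02. Adrm1 was not among the genes measured.

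On the mature fibre score, 11 of the 32 genes without the inducible subunits had a called positive slope and 3 a negative one. Over all genes the shares were 20.2% and 24.0%. Most of the 32 genes lay above the floor, where the shares were 36.0% and 37.8% of 8828 genes. The inducible subunits had slopes of -2.06 for Psmb8, -1.26 for Psmb9 and -0.69 for Psmb10, all past the threshold. Nfe2l1 had a slope of 0.83 (standard error 0.11, adjusted p = 1.27e-06 from limma), whereas Nfe2l2 had -0.05 and Pomp -0.13, not past the threshold. In the p97 complex, which extracts ubiquitinated proteins, Ufd1 (1.16), Faf1 (0.92) and Nploc4 (0.35) were positive and Faf2 (-0.86) negative. Its other measured genes, Vcp (-0.18) and Nsfl1c (-0.09), were not called. The ubiquitin shuttles Ubqln4 and Rad23b had 1.21 and 0.66, and the associated proteins Uchl5, Ublcp1 and Ube3c had 0.53, 0.49 and 0.39, while Zfand2a had -0.73. Keap1 (0.82) and Nfyb (0.44) were positive and Nfya (-0.59, near the floor) negative among the regulators. None of the 5 measured assembly factors was called.

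The promoter motifs named above were also counted by the direction of the slope. Of the 7 genes with a positive slope and a promoter sequence, 3 held the antioxidant response element core and 1 the CCAAT box. Psme4 and Psmd12, shown above, were among these 3. Psmd6 and Psmd11, with steeper slopes than Psmd12, held neither motif. Of the 8 with a negative slope, none held the former and 3 held the latter, and of the 19 without a called slope 3 and 10 did. These numbers are small and were not tested.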

How the data were processed

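Transcripts of ischemic gastrocnemius muscle from 22 mice (11 SCR, 11 ANTI-210, grouped by the experiment group in the labels) were measured on Illumina MouseWG-6 v2 BeadChips. According to the methods, the authors summarised beads in GenomeStudio, quantile normalized them and filtered probes with beadarray (versions: not given in the sources used here). Here the scale of the deposited values was read as log2 because they ran from 4.35 to 15.4, and 0 further columns of values were present. Detection p-values were not used.

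Differences and slopes were fitted over all 38563 probes with limma 3.58.1 (lmFit, eBayes) in R 4.3.3; tests were two-sided and adjustment was by Benjamini-Hochberg over all probes. Genes were named by the platform annotation (32093 probes with 1 symbol, 16 with several, 6454 with none). Slopes had treatment as a covariate, and the difference of slopes was an interaction term. The threshold for treatment, an unadjusted p under 0.05, is that of the methods. Exact permutation tests were used within sets of replicate numbers. Intervals are 95% intervals from limma. The proteasome genes, marker lists, pathway lists and tests were chosen with earlier results of these data known. Genes were named where they passed a threshold for treatment or the interaction, had the 3 largest differences or slopes in a direction, or represent a role: catalytic subunits, activators, chaperones, tissue-restricted subunits, Psmd14, Psmc4, Psma7, Psmd4, genes of no role, and Psmb8, Psmb9, Psmb10, Pomp, Nfe2l1, Nfe2l2 and Adrm1. Other genes with a called slope, dimmer probes and Ngly1 were named after their values were seen. Promoters, gene positions and the microRNA are from RefSeq (GRCm38.p6); motifs were searched with Python 3.11.15. The fits were tested on simulated data. Alternatives were 3 scalings, a trended robust eBayes, array weights, only the brighter probes, the mean of all probes, the fibre score as a covariate, the replicate number as a block, subsets of replicate numbers, and leaving out mice. The number of arrays limits the precision. The labels give an RNA integrity number above 7 for all samples.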

Additional observations from a re-analysis of the deposited data

Results flagged for a closer look

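The slope on the mature fibre score differed between treatments in 3 genes at an unadjusted p under 0.05 from limma's interaction term, and in none after adjustment. For Psmd14 the slope was higher in ANTI-210 mice by 0.68 (unadjusted p = 0.0093, adjusted p = 0.836), with slopes of 0.15 in SCR and 0.83 in ANTI-210 mice; without SCR replicate 6 it was 0.57 and not past the threshold (unadjusted p = 0.0661). For Psmb2 the slope difference was -0.31 (unadjusted p = 0.0418, adjusted p = 0.868), and it missed the threshold without 1 of SCR mice 2, 6, 7 and 9 and ANTI-210 mice 4, 6, 9 and 11, with values between -0.39 and -0.24 over all 22 cases. For Psmd9 it was -0.74 (unadjusted p = 0.0409, adjusted p = 0.868). It missed the threshold without 1 of SCR mice 1, 2, 4, 6 and 8 and ANTI-210 mice 6, 10 and 11, and was -0.27 without ANTI-210 replicate 11. The share of genes called, 7.32% of 41, stood beside 5.97% of all genes.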

How the results depend on the processing

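The count of proteasome genes past the threshold for treatment, 3, was 1 with eBayes trend and robust, 0 with only the brighter probes (37 of the 41 genes were left), 6 within replicate numbers 1 to 3 (2 higher, 4 lower) and 1 to 3 on leaving out each mouse, with 1 without SCR replicate 4 or ANTI-210 replicate 3 or 11. The median difference stayed between -0.02 and -0.001. The shares of all genes in the alternative fits of this section are not given here. Their counts therefore have no background beside them. The counts of called slopes on the fibre, macrophage and regenerating scores, 19, 18 and 19, fell to 0 within numbers 1 to 3, where 6 mice were left. Leaving out each mouse gave counts from 16 to 20, from 15 to 18 and from 17 to 20. In numbers 1 to 3 the slope of Psmd6 reversed to -0.26.

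The count of genes whose slope differed between treatments, 3, was 8 after cyclic loess, 1 with trend and robust, 5 with array weights and 6 with the mean of all probes. Leaving out each mouse gave 0 to 7, with 1 without SCR replicate 2 or ANTI-210 replicate 6, 0 without SCR replicate 6 and 7 without ANTI-210 replicate 11. Within numbers 1 to 3 the slope difference of Psmb2 reversed to 0.60 and that of Psmd14 to -0.13.

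Among the 35 related genes the count past the treatment threshold, 0, was 6 with array weights and 1 with the mean of all probes. It was 4 with the fibre score as a covariate and 13 within numbers 1 to 3 (4 higher, 9 lower). Without the share of all genes in the same fit, the 13 cannot be read as a result about these genes. Leaving out each mouse gave 0 to 3, with 3 in the absence of SCR mouse 6 or 7 or ANTI-210 mouse 5 or 6 and 1 in that of SCR mouse 2, 3, 5 or 8.

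Replicate numbers did not pair the mice: the correlation of their deviations ran from -0.66 to 0.64, 4 of 11 pairs were over 0.1, and 1 of 11 SCR mice correlated best with its own number. With the replicate number as a block, the treatment count was 2, the counts of called slopes were 18, 18 and 19, the count of slope differences was 2 and that of related genes 0. Psmd8 missed the threshold under the block (unadjusted p = 0.0944 from limma), the slope difference of Psmb2 was -0.14 and no longer past it (unadjusted p = 0.506), that of Psmd9 was -1.47 and that of Psmd14 reversed to -0.036. Causes were not tested. Near the floor of the array, changes in RNA are compressed, which limits Psma1, Psma6, Psma8, Psmb11, Psmc6 and Psmd3.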
